A study of Pseudotsuga menziesii with 75 samples.

Results

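Conifer terpene synthases were followed through 9 contigs, of 59189 in the deposited needle matrix, in adult Douglas-fir (Pseudotsuga menziesii) trees. A contig is an assembled transcript sequence, and members were chosen by their descriptions. Of the 13 words searched (among them terpene synthase, pinene, limonene, carene and bisabolene), only myrcene was found, in the descriptions of all 9 contigs. These descriptions read "myrcene chloroplastic", "myrcene chloroplastic-like" or "low quality protein: myrcene chloroplastic-like" and do not hold the word synthase. Of the 9 contigs, 7 carried a Gene Ontology term for terpene or sesquiterpene synthase activity, and 3 carried the term for sesquiterpene synthase activity (isotig116861, GAEK01011895.1 and GAEK01011896.1), so the product of each enzyme is not given by its description. Only GAEK01035795.1 was matched to an Arabidopsis locus, AT4G16730, while the other 8 had none.

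Terpene synthases turn prenyl diphosphates into the volatile and resinous terpenes of plants: geranyl diphosphate into monoterpenes such as myrcene, farnesyl diphosphate into sesquiterpenes, and geranylgeranyl diphosphate into diterpenes. In conifers these products make up the oleoresin of needles and stem, which is stored in resin ducts and serves in defence against insects and fungi. Myrcene synthase acts in the plastid and yields an acyclic monoterpene.

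Needles grown in 2009 were taken in 2010 from the sun-exposed upper canopy of 25 trees, and each library held the RNA of 1 tree in 1 month. The labels call the time of day noon, and the clock times they give for 62 libraries run from 46200 to 56580, which is past midday if read as seconds of the day. Provenance names the place a tree's seed came from, here Cameron Lake on Vancouver Island or Salmon Arm in the interior of British Columbia. There were 12 Cameron Lake trees, 7 growing at Schluchsee and 5 at Wiesloch, and 13 Salmon Arm trees, 6 at Schluchsee and 7 at Wiesloch. The 75 libraries fell into 20 from May, 17 from June, 20 from July and 18 from September, which made 16 groups of 4 to 5 libraries by provenance, site and month. Each site was visited on 1 day per month, Schluchsee on 27 May, 30 June, 28 July and 15 September, and Wiesloch on 12 May, 16 June, 14 July and 8 September, so site and sampling day cannot be told apart. Each provenance stands for a single origin, and a tree gave at most 1 library per month.

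Library totals ran from 18.54 M to 47.51 M counts (median 34.05 M, with M for 1e+06). No value in the matrix is 0: the most frequent low value was 2 in 72 libraries and 4 in the other 3, all of Salmon Arm trees, so a contig at 1 to 4 counts was near the lowest level the matrix gives. Likeness between libraries was read from log2 levels less the mean of each library's group, and only against libraries of other months. Among the 72 libraries with another library of their tree, 71 were by this measure most like one of their own tree. The exception was the July library of Cameron Lake tree 16 at Wiesloch. The needles carried markers of photosynthetic cells, 6 of 7 measured, at a summed level of 7135 to 17346 counts per 1e+06 counts of a library (CPM) in Cameron Lake libraries and 6444 to 15070 CPM in Salmon Arm libraries. Of 7 xylem markers 5 were measured, at a summed 21.9 to 76.4 CPM in Cameron Lake libraries and 18.6 to 44.3 CPM in Salmon Arm libraries, and the list held no marker of resin duct cells. Of the photosynthetic markers 2 of 6 were higher in Cameron Lake trees and of the xylem markers 0 of 5 passed; their part in the provenance results was not tested. In needle samples of mixed cells, fewer cells of a type and less RNA per cell cannot be told apart. Levels below are library-size-scaled CPM of single contigs, which are not comparable between contigs because their lengths were not used here.

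The 9 contigs differed in how many libraries they reached. Contig isotig116861 had 68 to 2900 counts and was above 20 counts in all 75 libraries. The other 8 were at or above 20 counts in 11 to 37 libraries: 37 for GAEK01011896.1, 36 for GAEK01035795.1, 34 for GAEK01035631.1, 31 for GAEK01011895.1, 26 for GAEK01032089.1, 19 for isotig62671, 17 for GAEK01033686.1 and 11 for isotig56403. GAEK01033686.1 reached 20 counts in 0 Cameron Lake libraries and 17 Salmon Arm libraries, and isotig56403 in 6 Cameron Lake libraries and 5 Salmon Arm libraries.

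**Figure D1:**
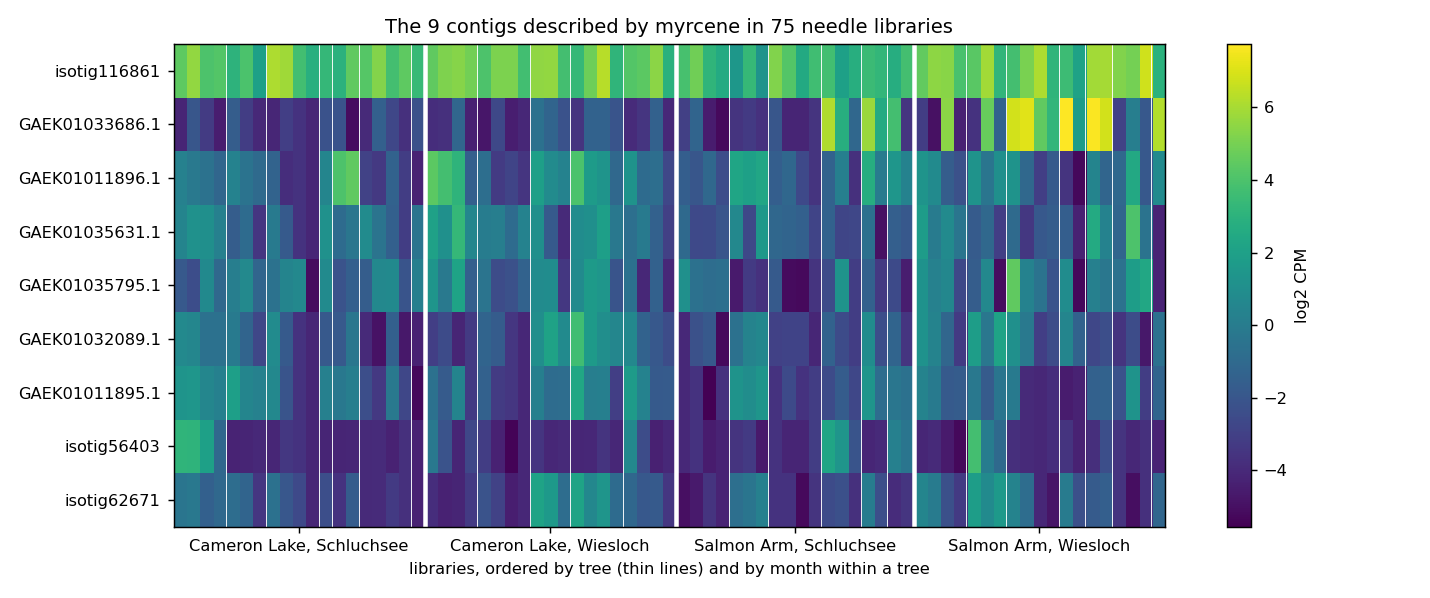
Heat map of the level of each of the 9 contigs (rows, colour in log2 CPM) in each of the 75 libraries (columns, in 4 blocks by provenance and site, ordered by tree and by month within a tree). Contig isotig116861 is at 2.44 CPM or above in every library, GAEK01033686.1 is at or below 0.656 CPM in all 38 Cameron Lake libraries, and most other rows are bright in single trees.

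Between the provenances, 1 of the 9 contigs differed. GAEK01033686.1 was lower in Cameron Lake trees. Its level per tree averaged 0.179 ± 0.0903 CPM in Cameron Lake trees (SD, n = 12; 0.077 to 0.406) and 36.4 ± 49.2 CPM in Salmon Arm trees (SD, n = 13; lowest 0.0849, median 8.3, highest 164). By library it had 0.0283, 0.0974 and 0.656 CPM as lowest, median and highest in the 38 Cameron Lake libraries and 0.0265, 0.412 and 215 CPM in the 37 Salmon Arm libraries. All 12 Cameron Lake trees were low, and the Salmon Arm trees ranged from equally low to high, so the provenances overlapped at the low end. The log2 difference, Cameron Lake minus Salmon Arm, was −6.67 (SE 1.15), with an adjusted p of 0.0014 in edgeR's quasi-likelihood test on counts summed per tree. Because Cameron Lake libraries were near the lowest values of the matrix, the size of this difference depends on how those values are read: over the other normalisations, filters and tools it ran from −7.16 to −4.24, with adjusted p-values of 3.1e-14 to 0.021. Without the 3 libraries of a higher lowest value it was −6.59 (adjusted p = 0.00095). Leaving out any single tree gave −6.96 to −6.27, with adjusted p-values of 0.00074 to 0.0083. Among all contigs tested 10.7% were called in this comparison, so 1 of 9 is close to the background. In this fit, which holds site and month shares as covariates, the other 8 contigs were all above 0 but did not pass. With the tree as a block in limma, isotig62671 was at −0.10 and isotig56403 at −0.35. By plain tree means isotig56403 (0.528 against 0.776 CPM) and GAEK01035795.1 (1.08 against 1.17 CPM) were lower in Cameron Lake. GAEK01035631.1 was at 1.3 CPM in both, and the rest of the 8 were higher in Cameron Lake. The median log2 difference of the 9 was 0.48, against 0.01 over all contigs.

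The high level of GAEK01033686.1 was not found in every Salmon Arm tree. The 38 Cameron Lake libraries ran from 1 to 16 counts, so that 0 of the 12 Cameron Lake trees reached 20 counts, while 10 of the 13 Salmon Arm trees did in at least 1 library. The counts of the Salmon Arm trees follow. At Wiesloch, tree 12 had 3138, 4495, 779 and 256 counts in May, June, July and September, and tree 14 had 5412 counts in May and 2366 in July. Tree 13 at Wiesloch had 5117 counts in June and 136 in September, and tree 16 had 2832 in September, its only library. These 4 trees were high in every library they had, although the later libraries of trees 12, 13 and 14 were lower. Tree 9 at Wiesloch had 4, 1, 1073 and 2 counts from May to September, tree 11 had 3, 587 and 13 in May, July and September, and tree 15 had 3, 36 and 7 in May, June and July. In those trees 1 library was far above the others. At Schluchsee, tree 14 had 2052, 242 and 12 counts in May, July and September, tree 15 had 1872 in July and 185 in September, and tree 16 had 398 in May and 2 in June. Trees 9, 12 and 13 at Schluchsee stayed between 1 and 10 counts in every library.

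**Figure D2:**
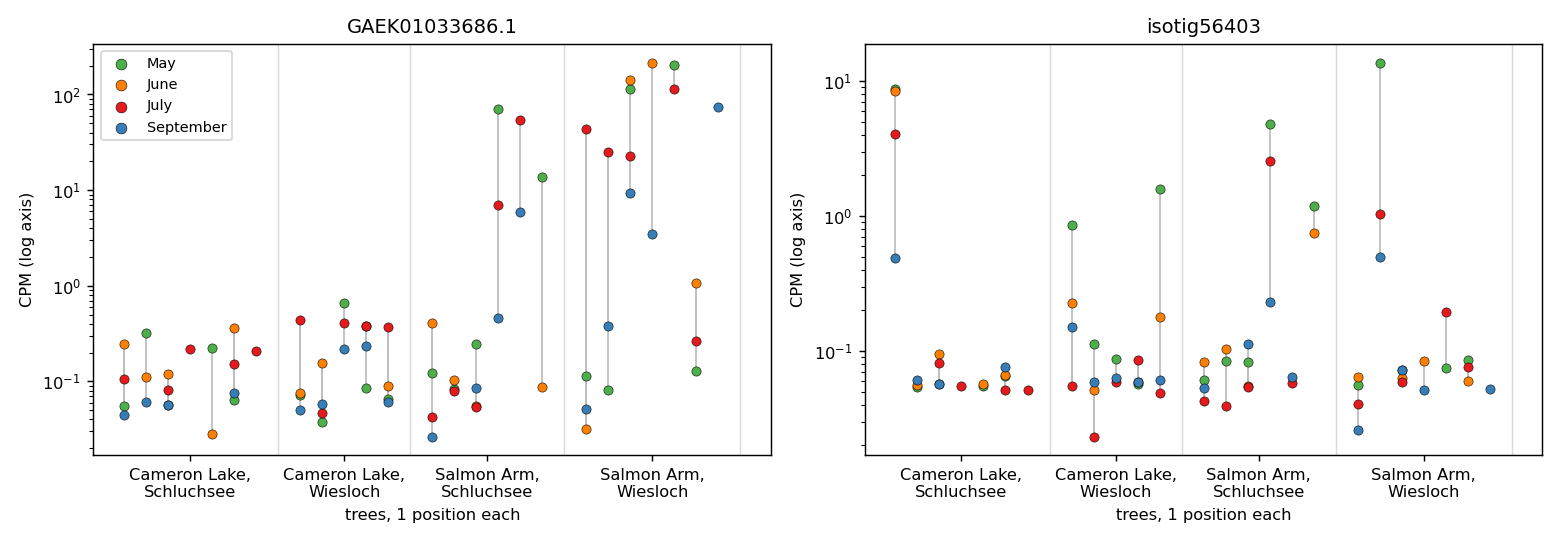
Level (CPM, log axis) of GAEK01033686.1 on the left and of isotig56403 on the right in every library, with 1 position on the horizontal axis for each tree, a point for each library coloured by month and a grey line joining the libraries of a tree. GAEK01033686.1 stays at or below 0.656 CPM in all 12 Cameron Lake trees and reaches 215 CPM in Salmon Arm trees, whereas isotig56403 is high in 3 trees of each provenance.

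The difference of GAEK01033686.1 was present at both sites. Cameron Lake minus Salmon Arm was −5.35 at Schluchsee (SE 1.42, adjusted p = 0.032 in edgeR), where the trees averaged 0.153 ± 0.0516 CPM for Cameron Lake (SD, n = 7) and 10.8 ± 14.1 CPM for Salmon Arm (SD, n = 6). At Wiesloch it was −7.85 (SE 1.61, adjusted p = 0.033 in edgeR), with 0.214 ± 0.126 CPM in Cameron Lake trees (SD, n = 5) and 58.4 ± 58.8 CPM in Salmon Arm trees (SD, n = 7). Of the 9 contigs only this one was called at either site, where 6.41% of all contigs were called at Schluchsee and 0.517% at Wiesloch. Whether the provenance difference depended on the site was tested by the interaction, in which 0 of the 9 contigs and 0% of all contigs were called. In that test, edgeR gave 0 of the 9 an unadjusted p under 0.05 and DESeq2 called 0, and the lowest unadjusted p-values were 0.17 for GAEK01033686.1, 0.21 for isotig116861 and 0.23 for GAEK01035795.1, with adjusted p-values of 0.81 to 0.85.

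Taken month by month, GAEK01033686.1 was lower in Cameron Lake in July and September. In May it did not pass the filter on low counts, and 0 of the 7 contigs tested were called, with 2 at an unadjusted p under 0.05 in edgeR and 0 called by DESeq2, where 3.28% of all contigs were called. In June the log2 difference was −5.36 (SE 2.19, adjusted p = 0.24 in edgeR), and 0 of 8 were called, 1 of them at an unadjusted p under 0.05 and 1 called by DESeq2, against 1.50% of all contigs. In July it was −6.66 (SE 1.19, adjusted p = 0.0042 in edgeR), as 1 of 8 contigs called against 4.26% of all. In September it was −6.29 (SE 1.32, adjusted p = 0.024 in edgeR), as 1 of 6 called against 1.38% of all. Its Cameron Lake libraries had 1 to 8 counts in September, so it passed the filter on low counts only through Salmon Arm libraries. The September call is therefore no separate support. The September call was lost, at adjusted p-values of 0.052 to 0.07, when any of Cameron Lake Wiesloch trees 9, 12 and 16 or Salmon Arm Schluchsee tree 15 was left out, and the contig no longer passed the filter without Salmon Arm Wiesloch tree 11, 12, 13 or 16.

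The other 8 contigs overlapped widely between the provenances. GAEK01035631.1 reached 20 counts in 24 Cameron Lake and 10 Salmon Arm libraries, and in 11 of 12 Cameron Lake and 5 of 13 Salmon Arm trees. Its level averaged 1.3 ± 1.24 CPM in Cameron Lake trees (SD, n = 12) and 1.3 ± 2.05 CPM in Salmon Arm trees (SD, n = 13), since Salmon Arm Wiesloch trees spread over 0.0523 to 7.0 CPM, and its log2 difference of 0.5 (SE 0.44) had an adjusted p of 0.48. The contigs with a sesquiterpene synthase term were at 0.42 for isotig116861 (SE 0.31), 0.54 for GAEK01011895.1 (SE 0.62) and 0.57 for GAEK01011896.1 (SE 0.96), with adjusted p-values of 0.39, 0.6 and 0.74 in edgeR. Contig isotig116861 averaged 23.1 ± 10.0 CPM in Cameron Lake trees (SD, n = 12) and 21.9 ± 19.1 CPM in Salmon Arm trees (SD, n = 13). GAEK01032089.1, isotig62671 and GAEK01035795.1 were at 0.48, 0.28 and 0.17 (SE 0.64, 0.62 and 0.58), with adjusted p-values of 0.66 to 0.88. For these contigs the standard errors are as large as or larger than the differences, except for isotig116861 and GAEK01035631.1.

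The contigs whose levels followed GAEK01033686.1 most closely were described as diterpene enzymes or not at all. Nearness was measured as Pearson's r of log2 CPM over the 75 libraries, which share trees, depth and the lowest values of the matrix, and is given as a description. Contigs isotig17895 (r = 0.98, Spearman's rho = 0.84, and r = 0.97 without the 2 libraries farthest from the median) and isotig17894 (r = 0.97) had no description. Contigs isotig60600 (r = 0.97) and isotig17896 (r = 0.94) were described as "ent-copalyl diphosphate chloroplastic-like", the name of an enzyme that folds geranylgeranyl diphosphate into the precursor of gibberellins and related diterpenes. The next contig was at r = 0.84. Within the 37 Salmon Arm libraries these 4 stood at r = 0.99, 0.98, 0.98 and 0.96, and over the 17 libraries with at least 20 counts of GAEK01033686.1 isotig17895 stood at 0.99. Contig isotig60600 had 1 to 6 counts in Cameron Lake libraries and 1 to 3909 in Salmon Arm libraries (medians 2 and 5). Its trees averaged 0.0734 ± 0.0215 CPM in Cameron Lake (SD, n = 12) and 19 ± 32.9 CPM in Salmon Arm (SD, n = 13). As these contigs were chosen for their likeness to GAEK01033686.1 over libraries of both provenances, these levels are a description, given with no test, and no further support for its provenance difference. Whether reads were split among near-identical contigs was not tested, since sequences were not used here.

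**Figure D3:**
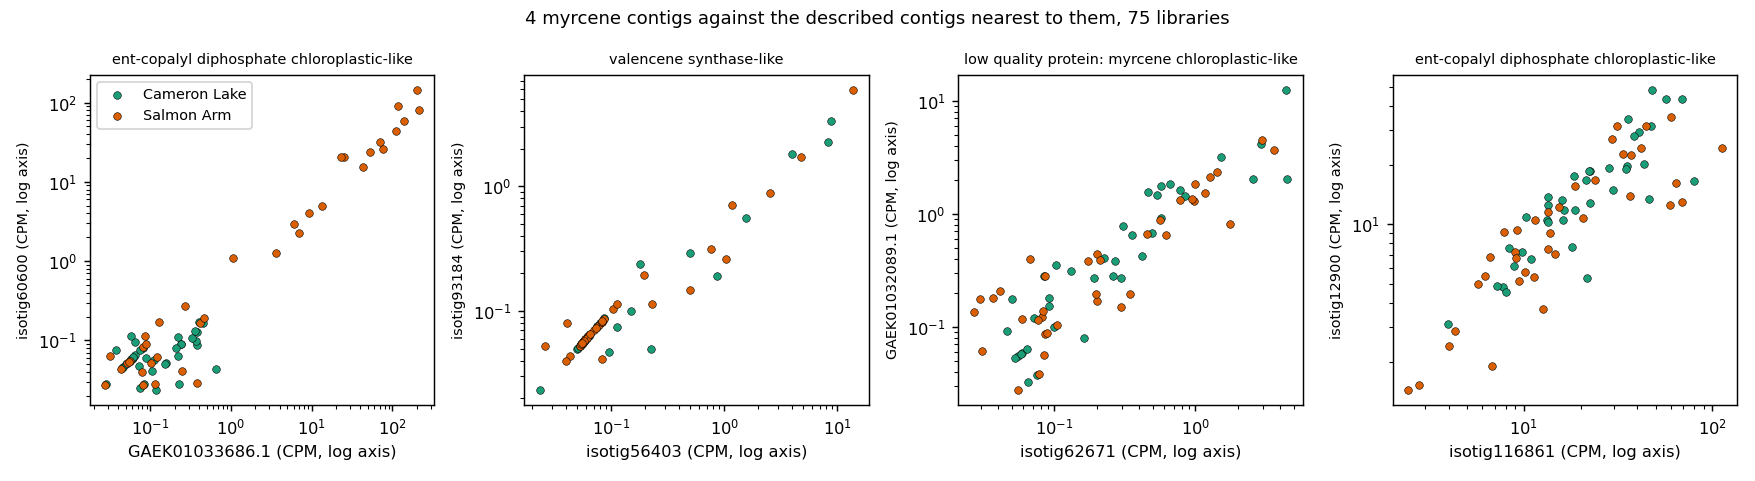
Level of GAEK01033686.1, isotig56403, isotig62671 and isotig116861 (horizontal axes, CPM, log scale) against that of a described contig near to each (vertical axes, CPM, log scale), with a point for each of the 75 libraries coloured by provenance and the description above each panel. GAEK01033686.1 and isotig60600 are high together in Salmon Arm libraries (r = 0.97), and many points of isotig56403 and isotig93184 lie at the lowest values of the matrix.

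Single trees accounted for a large part of the variation in 7 of the 9 contigs. Of the sum of squares of log2 CPM, trees within provenance and site held 75.3% for isotig56403, 69% for isotig62671, 62.3% for GAEK01011896.1, 61.5% for GAEK01032089.1, 59.8% for GAEK01011895.1, 45.3% for GAEK01033686.1 and 40.1% for GAEK01035631.1. The median of the 9 was 59.8%, against 33.5% over all contigs. GAEK01033686.1 was the one with a large provenance share, 23.6%. GAEK01035795.1 had 25.2% between trees and 25.8% between months, and isotig116861 had 23.5% between trees, 16% between sites, 19.9% between months and 18.7% for month by site. Tested as differences among trees within provenance and site, all 9 passed, with edgeR adjusted p-values of 5e-15 for isotig56403 to 0.0073 for GAEK01035795.1, where 69.6% of all contigs passed.

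**Figure D4:**
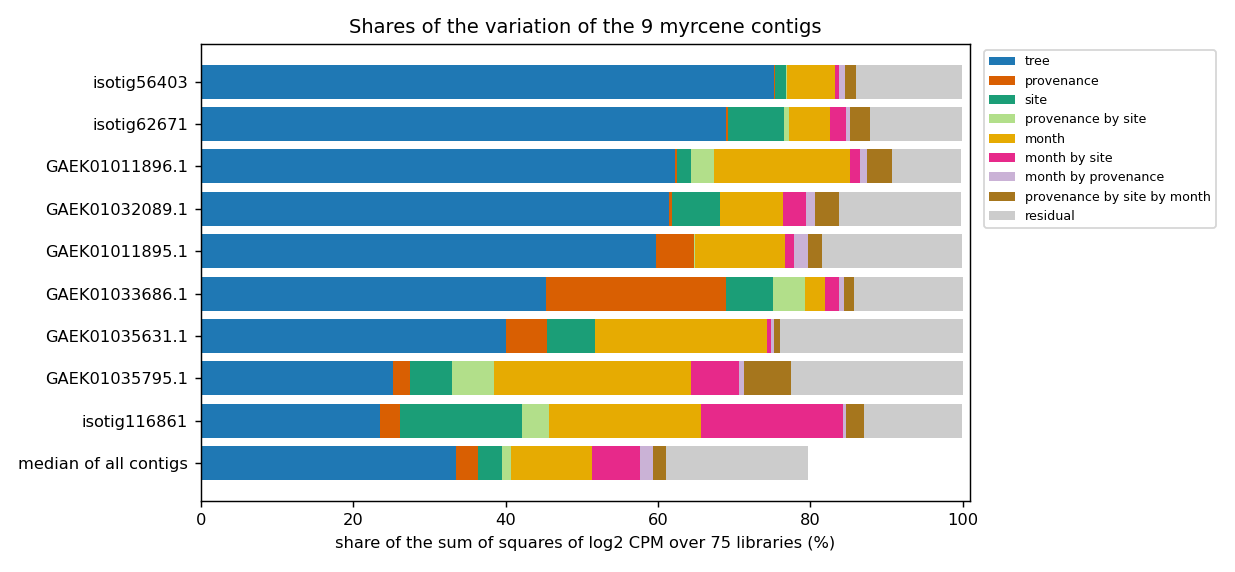
Share of the variation in log2 CPM over 75 libraries (percent of the sum of squares) that tree, provenance, site, month, their combinations and the residual hold, with a bar for each of the 9 contigs and below them the medians over all contigs, which do not add to 100. The tree share is 75.3% for isotig56403, 23.5% for isotig116861 and 33.5% at the median of all contigs.

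Contig isotig56403 was high in a few trees. It reached 20 counts in 11 libraries of 6 trees, 3 of each provenance, and was at 1 to 4 counts in the 55 libraries of the other 19 trees. Cameron Lake Schluchsee tree 9 had 318, 274, 193 and 22 counts from May to September. Cameron Lake Wiesloch trees 9 and 16 had 36, 9, 2 and 3 counts, and 48, 6, 2 and 2 counts, over the same months. Salmon Arm Wiesloch tree 11 had 509, 24 and 17 counts in May, July and September, Salmon Arm Schluchsee tree 14 had 139, 89 and 6 in those months, and tree 16 there had 35 in May and 17 in June. In each of the 6 trees the May library was the highest. Salmon Arm Wiesloch tree 11 and Salmon Arm Schluchsee tree 14 had no June library. Without the tree as a block, the log2 difference of June minus May was −2.44 (SE 0.81, adjusted p = 0.025 in edgeR). The May and June groups of that fit held partly different trees. With each tree as its own block, which compares months within trees, the difference was −0.97 (adjusted p = 0.04). In the fit without the block, leaving out Salmon Arm Wiesloch tree 11 gave −1.14 (adjusted p = 0.35). Without Cameron Lake Wiesloch tree 16 or Salmon Arm Schluchsee tree 14 the adjusted p of that fit was 0.062 and 0.059. The alternatives gave adjusted p-values of 0.0043 to 0.12, the highest with clock time as a covariate (−2.97). Its provenance log2 difference of 1.53 (SE 0.94) had an adjusted p of 0.3, although its plain tree mean was lower in Cameron Lake.

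The contig nearest to isotig56403 was isotig93184, described as valencene synthase-like, a sesquiterpene synthase name, and matched to the same Arabidopsis locus as GAEK01035795.1. Their levels stood at r = 0.97 over 75 libraries (Spearman's rho = 0.86) and at 0.96 over the 11 libraries with at least 20 counts of isotig56403, while the next contig was at 0.65. In the 20 libraries of the 6 trees isotig93184 had 2 to 220 counts (median 8), against 1 to 4 in the 55 libraries of the other trees (median 2). As isotig93184 was chosen for its likeness over the same libraries, these counts describe that likeness and are no further support.

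Other members went together in part. Over the 36 pairs among the 9 contigs, r ran from −0.12 to 0.91 with a median of 0.16, and 5 pairs were above 0.5. The pair isotig62671 and GAEK01032089.1 stood at 0.91 (Spearman's rho = 0.88), and at 0.74 and 0.84 over the libraries with at least 20 counts of the first and of the second contig. Both were close to isotig03140, which has no description (0.90 for isotig62671 and 0.96 for GAEK01032089.1), and isotig62671 to a contig described as isoprene chloroplastic-like (0.84), and GAEK01032089.1 to one described as valencene synthase-like (0.88). GAEK01011895.1 and GAEK01011896.1 stood at 0.74 over all libraries (0.76 over tree means), but at 0.05 and 0.29 over the libraries with at least 20 counts of each. Keeping only those libraries also narrows the range of levels, and the source of the likeness was not tested. GAEK01011896.1 was nearer to isotig28051, described as (-)-germacrene d synthase, another sesquiterpene enzyme name, with 0.87 over 75 libraries and 0.88 over its 37 libraries with at least 20 counts. GAEK01011896.1 was highest in Cameron Lake Schluchsee tree 14 (601 and 809 counts), Cameron Lake Wiesloch tree 9 (878, 542, 308 and 7 counts from May to September) and Cameron Lake Wiesloch tree 15 (549, 115, 58 and 16 counts). The September library of both Wiesloch trees was their lowest. GAEK01035795.1 and GAEK01035631.1 had no contig nearer than r = 0.67 and 0.62.

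Between the sites, isotig116861 and GAEK01035631.1 were lower at Schluchsee. Contig isotig116861 averaged 14.9 ± 9.31 CPM in Schluchsee trees (SD, n = 13; lowest 4.12, median 10.7, highest 39.3) and 30.7 ± 16.2 CPM in Wiesloch trees (SD, n = 12; lowest 7.08, median 28.8, highest 61.4). The sites overlapped, and the log2 difference of Schluchsee minus Wiesloch was −1.02 (SE 0.32, adjusted p = 0.034 in edgeR). GAEK01035631.1 averaged 0.785 ± 0.703 CPM in Schluchsee trees (SD, n = 13; 0.222 to 2.22) and 1.86 ± 2.22 CPM in Wiesloch trees (SD, n = 12; 0.0523 to 7.0), also with overlap, a log2 difference of −1.54 (SE 0.48, adjusted p = 0.031 in edgeR). These 2 of 9 stood against 16.9% of all contigs called. The call of isotig116861 was lost, at adjusted p-values of 0.053 to 0.093, without any 1 of Cameron Lake Schluchsee trees 10 and 14, Cameron Lake Wiesloch tree 13, Salmon Arm Schluchsee trees 14 and 16 and Salmon Arm Wiesloch trees 12 and 15. That of GAEK01035631.1 was lost, at 0.052 to 0.082, without any 1 of Cameron Lake Schluchsee trees 10, 11 and 14, Cameron Lake Wiesloch tree 9, Salmon Arm Schluchsee trees 14 and 16 and Salmon Arm Wiesloch tree 15, and with the tree as a block in limma it was −0.77 (adjusted p = 0.23). The median log2 difference of the 9 was −1.01, against 0 over all contigs.

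Within months, the site difference of isotig116861 was largest in July. Its 10 July libraries from Schluchsee had 2.44, 10.3 and 16.4 CPM as lowest, median and highest, and the 10 from Wiesloch had 34.8, 53.6 and 110 CPM. All Wiesloch libraries were above all Schluchsee libraries in July, with means of 9.64 ± 4.44 CPM at Schluchsee and 59.1 ± 23.0 CPM at Wiesloch (SD, n = 10 each), a log2 difference of −2.66 (SE 0.31, adjusted p = 1.3e-06 in edgeR). It was 1 of 8 contigs called in July, where 41.8% of all contigs were called. The summed level of the photosynthetic markers in July ran from 6500 to 13839 CPM at Schluchsee and from 7135 to 11861 CPM at Wiesloch, and that of the xylem markers from 23 to 46.9 CPM at Schluchsee and from 18.6 to 39.2 CPM at Wiesloch. Of the 6 photosynthetic markers 2 were higher and 1 lower at Schluchsee in July, and of 4 xylem markers tested 1 was higher; their part in the site difference was not tested. In May 0 of 7 contigs were called, although all 7 were below 0, 4 had an unadjusted p under 0.05 in edgeR and 3 were called by DESeq2 (GAEK01035795.1, GAEK01032089.1 and isotig62671, with adjusted p-values of 0.012, 0.044 and 0.014), against 2.97% of all contigs called. In June 0 of 8 were called, with 2 at an unadjusted p under 0.05 in edgeR and GAEK01033686.1 called by DESeq2, against 3.14% of all contigs. In September 0 of 6 were called, with 2 at an unadjusted p under 0.05 in edgeR and GAEK01032089.1 called by DESeq2, against 8.29% of all contigs.

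The seasonal course of isotig116861 differed between the sites. From May through June, July and September its median was 14.0, 22.4, 10.3 and 8.21 CPM at Schluchsee and 21.4, 32.7, 53.6 and 8.97 CPM at Wiesloch. At Schluchsee July was lower than June, by −1.48 on the log2 scale (SE 0.37, adjusted p = 0.0026 in edgeR), and at Wiesloch July minus June was 0.94 (SE 0.38, adjusted p = 0.063). At Wiesloch September was lower than July, by −2.34 (SE 0.37, adjusted p = 4.9e-07 in edgeR), and at Schluchsee that difference was 0.21 (SE 0.38, adjusted p = 0.83). These single-site steps were run without the tree as a block. The test of month by site itself had an adjusted p of 9.8e-05 in edgeR and 2.7e-06 in DESeq2, and 3.8e-06 with each tree as its own block. It was the 1 of 9 contigs called in that test without the block, where 34.9% of all contigs were called. GAEK01035795.1 had the next smallest p, with an adjusted p of 0.058 in edgeR, 0.024 in DESeq2 and 0.13 with the block. With the block GAEK01011896.1 passed as well (adjusted p = 0.011, against 0.85 without it).

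**Figure D5:**
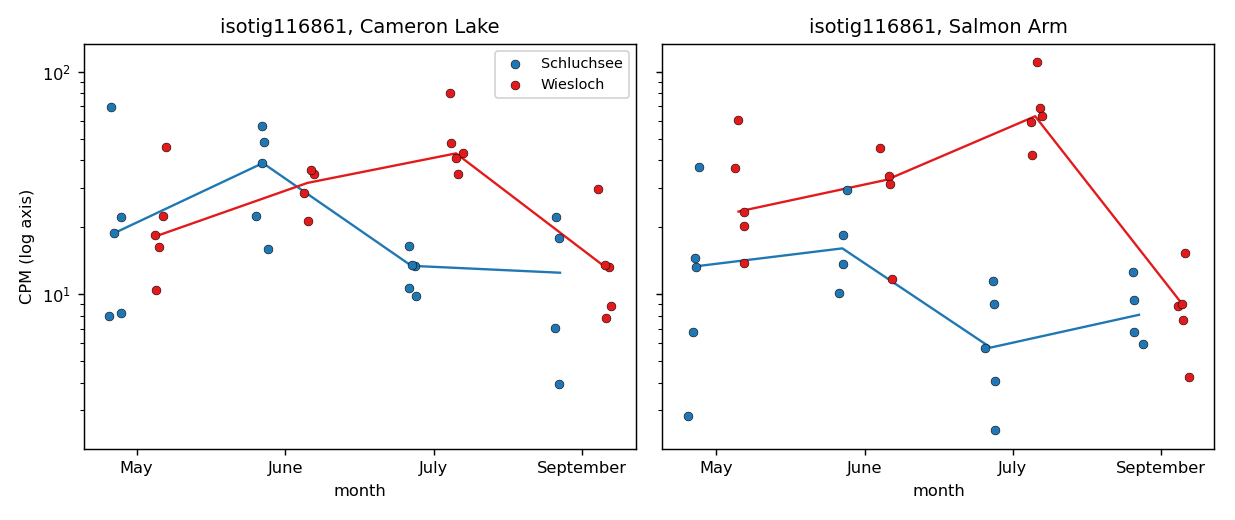
Level of isotig116861 (CPM, log axis) in every library by month, Cameron Lake in the left panel and Salmon Arm in the right, with points for libraries and lines through the median of each site and month. In July the 10 Schluchsee libraries sit between 2.44 and 16.4 CPM and the 10 Wiesloch libraries between 34.8 and 110 CPM.

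The contigs nearest to isotig116861 were again described as ent-copalyl diphosphate chloroplastic-like or without description. They were GAEK01016429.1 (r = 0.87, no description), isotig12900 (0.87), isotig12897 (0.87, no description), isotig12899 (0.83) and isotig12898 (0.82). In July isotig12900 had 1.44, 6.97 and 10.5 CPM as lowest, median and highest at Schluchsee and 12.6, 19.8 and 31.6 CPM at Wiesloch, again without overlap. As these contigs were chosen for their likeness to isotig116861 over the same libraries, this describes that likeness, is given with no test and is no further support.

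Over both sites and without the tree as a block, 3 of the 9 contigs passed as lower in September than in July: GAEK01035795.1, GAEK01035631.1 and isotig116861. Of these, GAEK01035631.1 did not pass with the block. September minus July was below 0 for all 9 contigs, with a median of −1.25 against −0.02 over all contigs. The 3 of 9 are close to the 32.4% of all contigs that passed in either direction. Of the cell markers, the 1 guard cell marker measured was lower in September than in July (−0.7 on the log2 scale), 1 of 5 xylem markers was higher and 0 of 6 photosynthetic markers passed, while in July minus June 4 of 6 photosynthetic markers and 1 of 5 xylem markers were lower. In June minus May 1 of 5 xylem markers was higher and 0 of 6 photosynthetic markers passed, and in the test of month by site the guard cell marker and 1 of 5 xylem markers passed. Their part in the month results was not tested. GAEK01035795.1 had 0.0257, 0.134 and 0.61 CPM as lowest, median and highest in September and 0.0272, 1.56 and 5.44 CPM in July. All of its September libraries were below the July median, and the months overlapped. Its means were 2.0 ± 4.86, 1.07 ± 1.08, 1.55 ± 1.41 and 0.205 ± 0.177 CPM from May to September (SD, n = 20, 17, 20 and 18), and September minus July was −2.86 (SE 0.53, adjusted p = 2e-05 in edgeR). GAEK01035631.1 averaged 0.393 ± 0.479 CPM in September (SD, n = 18; lowest 0.0323, median 0.131, highest 1.46) and 1.45 ± 2.23 CPM in July (SD, n = 20; lowest 0.0812, median 0.584, highest 9.89), a log2 difference of −1.96 (SE 0.53, adjusted p = 0.003 in edgeR) with overlap. Contig isotig116861 averaged 11.3 ± 6.62 CPM in September (SD, n = 18) and 34.4 ± 30.1 CPM in July (SD, n = 20), a log2 difference of −1.07 (SE 0.26, adjusted p = 0.0011 in edgeR). That difference averages −2.34 at Wiesloch and 0.21 at Schluchsee, where the contig did not pass.

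At Wiesloch alone the same 3 contigs passed in September minus July, with −3.75 for GAEK01035795.1 (SE 0.75, adjusted p = 4.2e-05) and −1.87 for GAEK01035631.1 (SE 0.71, adjusted p = 0.029) in edgeR, where 42.0% of all contigs were called. At Schluchsee 0 of 9 passed in that step against 7.67% of all contigs, although 2 had an unadjusted p under 0.05 in edgeR, and GAEK01035795.1 was at −1.97 there (SE 0.75, adjusted p = 0.098). Of these 3 contigs only isotig116861 passed the test of month by site, so a difference between the sites is not shown for the others. In the step from May to June, isotig56403 was the only one of the 9 to pass over both sites, against 19.0% of all contigs, while 8 of the 9 were below 0 there. In that step 0 passed at Schluchsee alone (14.1% of all) and 0 at Wiesloch alone (7.77% of all), with 1 at an unadjusted p under 0.05 in edgeR at each site. From June to July 0 passed over both sites, with 1 at an unadjusted p under 0.05 in edgeR and 2 in DESeq2, which called 0, against 13.0% of all contigs, with isotig116861 passing at Schluchsee alone (17.0% of all) and 0 at Wiesloch alone (25.1% of all), where 1 had an unadjusted p under 0.05. The steps at single sites were run in edgeR only and without the tree as a block. The main fits of the steps over both sites and of month by site also had no block. All of these therefore treat libraries of 1 tree as independent. With each tree as its own block, the count of contigs passing was 2 of 9 for June minus May (31.8% of all), 1 for July minus June (21.9%), 5 for September minus July (41.3%) and 2 for month by site (46.5%). The 3 added in September minus July were GAEK01033686.1 (−2.97, SE 0.85, adjusted p = 0.0046), GAEK01011896.1 (−1.10, SE 0.35, adjusted p = 0.010) and isotig62671 (−0.90, SE 0.30, adjusted p = 0.015), all lower in September, while GAEK01035631.1 no longer passed (−1.01, adjusted p = 0.066). In that fit isotig116861 was higher in June than in May (0.61, SE 0.20, adjusted p = 0.019) and lower in July than in June (−0.58, SE 0.21, adjusted p = 0.048).

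Whether the seasonal course differed between the provenances was tested by month by provenance. None of the 9 contigs passed: edgeR gave 0 of them an unadjusted p under 0.05, DESeq2 called 0, and 0.00338% of all contigs were called (0.00507%, and 0 of the 9, with each tree as its own block). The smallest unadjusted p-values were 0.22 for GAEK01035795.1, 0.27 for GAEK01011896.1 and 0.33 for isotig56403, each with an adjusted p of 1.

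Genes that feed terpene synthases were compared between the provenances by Arabidopsis locus, each read from its most abundant contig. Of 7 measured genes of the methylerythritol phosphate pathway, which supplies plastid prenyl diphosphates, 2 were higher and 0 lower in Cameron Lake. Of 7 genes of the mevalonate pathway, the cytosolic supply, 2 were lower, and of 5 isomerase and prenyl transferase genes 1 was lower. Of 8 cytochrome P450 contigs described by abietadienol oxidation, a step of resin acid synthesis, or matched to CYP720A1, 3 were lower. Of 8 genes for the synthesis of and response to jasmonate, a hormone known to raise conifer terpene synthases, 2 were higher. Of 2 Arabidopsis loci of gibberellin terpene synthases 1 was lower and of 4 other users of prenyl diphosphates 0 passed. The median log2 differences of these lists were 0.19 for the methylerythritol phosphate pathway, −0.42 for the mevalonate pathway, 0.02 for isomerases and prenyl transferases, 0.03 for the P450 contigs and −0.01 for jasmonate, against 0.01 over all contigs, of which 10.7% were called. The lower gibberellin locus was AT4G02780, in Arabidopsis GA1, the copalyl diphosphate synthase of gibberellin synthesis. Its most abundant contig had 43.5 ± 43.5 CPM in Cameron Lake trees (SD, n = 12) and 262 ± 185 CPM in Salmon Arm trees (SD, n = 13). The log2 difference was −2.6 (SE 0.49, adjusted p = 0.0027 in edgeR). Of the contigs named above, isotig60600, isotig12899 and isotig12898 matched the same locus, at −6.73, 0.82 and 0.83. Which contig stands for the gibberellin enzyme was not tested. JAR1, which couples jasmonate to isoleucine, was higher by 0.78 (SE 0.15, adjusted p = 0.0027 in edgeR), with 103 ± 16.9 CPM in Cameron Lake trees and 61.8 ± 18.8 CPM in Salmon Arm trees. Of the resin acid P450 contigs, isotig121710 was lower by −5.22 (SE 0.89, adjusted p = 0.0013 in edgeR), with 0.0887 ± 0.112 CPM in Cameron Lake trees and 2.79 ± 3.43 CPM in Salmon Arm trees. Contig isotig58141, also among the 3 lower, had 0.0566 ± 0.00586 CPM in Cameron Lake trees and 0.664 ± 0.939 CPM in Salmon Arm trees. Both were near the lowest values of the matrix in Cameron Lake, as GAEK01033686.1 was, so the size of each difference depends on how those values are read. Cameron Lake trees held isotig58141 only at those values, so it passed the filter on low counts only through Salmon Arm trees. Its call and its log2 difference of −3.44 are therefore only a description. Whether isotig121710 also passed the filter only through Salmon Arm trees was not tested, so its call too is given as a description. Both contigs are in the count of 3 lower P450 contigs.

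Over the months PSY, the phytoene synthase that opens carotenoid synthesis, and AOS, the allene oxide synthase of jasmonate synthesis, were among the genes of these lists with the smallest adjusted p. PSY averaged 185 ± 44.3, 107 ± 17.5, 111 ± 49.7 and 170 ± 41.3 CPM from May to September (SD, n = 20, 17, 20 and 18), lower in June than in May by −0.77 on the log2 scale (SE 0.09, adjusted p = 2.3e-10 in edgeR) and higher in September than in July by 0.74 (SE 0.08, adjusted p = 8.6e-11). AOS averaged 194 ± 75.1, 281 ± 89.9, 199 ± 70.7 and 64.3 ± 18.6 CPM over the same months, lower in July than in June by −0.54 (SE 0.15, adjusted p = 0.011) and lower in September than in July by −1.58 (SE 0.16, adjusted p = 1.9e-12). Another contig described as allene oxide, GAEK01008481.1, was among the 5 nearest to GAEK01035631.1, with r = 0.59 over 75 libraries. GPS1, a prenyl transferase, was lower in June than in May by −0.49 (adjusted p = 4.2e-07), and JAR1 was higher in July than in June by 0.65 (adjusted p = 0.00022). The month differences of these genes come from the fit without the tree as a block, which treats libraries of 1 tree as independent.

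A further pair of lists was drawn up after the descriptions had been read. Of 8 other contigs described by a monoterpene, isoprene or sesquiterpene enzyme, 4 were lower in Cameron Lake and 0 higher, among them the camphene contig GAEK01031108.1 with a log2 difference of −2.24, where 10.7% of all contigs passed in either direction. In September minus July 1 of these 8 was lower, where 32.4% of all contigs passed. Of 21 contigs described by copalyl diphosphate or kaurene, 8 were lower and 2 higher in Cameron Lake, and 9 were lower and 2 higher in September than in July, beside the same 10.7% and 32.4% of all contigs. The 8 include isotig60600 and isotig17896, and the 9 include isotig12900, isotig12899 and isotig12898. Those were named above for their likeness to GAEK01033686.1 or isotig116861, so these counts are no further support for either. The first list likewise holds isotig93184 and isotig28051, named above for their likeness to members. It also holds GAEK01003693.1 (isoprene chloroplastic-like) and GAEK01003695.1 (valencene synthase-like), given above by description for their likeness to isotig62671 and GAEK01032089.1. The median log2 differences between the provenances were −0.84 for the first list and 0.02 for the second, against 0.48 for the 9 myrcene contigs.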

How the data were processed

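Needle RNA of 25 Douglas-fir trees was measured in 75 RNA-seq libraries. Per the submitters' processing notes CASAVA 1.7, Bowtie2 2.1, HTSeq and TAIR10 were named, without the part each played. Per the labels' protocols, total RNA was made into TruSeq libraries. The authors deposited 1 matrix of counts, whole numbers of reads for each of 59189 contigs, which carry no normalisation as far as the values show. Unescaped tabs in the deposited Gene Ontology field shift 29654 lines, so cells were numbered from the right end of a line, where the 75 libraries stand, and columns whose unit was recorded as other for that reason are counts too. No value is 0, and the lowest values (mostly 2) were used as deposited. Depth was 18.54 M to 47.51 M counts per library (M, 1e+06).

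Tests used the quasi-likelihood method of edgeR 4.0.16 (R 4.3.3) after filterByExpr and TMM scaling by factors of 0.897 to 1.105 (Benjamini-Hochberg over all contigs tested, threshold 0.05). Standard errors are the log2 difference divided by the square root of F. Provenance and site were tested on counts summed to 25 trees, with the other factor and the June, July and September shares of counts as covariates, and within months on 1 library per tree. Months were tested over 75 libraries with 16 group means. The labels name the tree, so libraries of 1 tree are paired. Correlations were taken on log2 levels less the mean of each library's group by provenance, site and month. Same-tree pairs of libraries had a median of 0.64 (86 of 89 over 0.1). Pairs with other trees of the same provenance and site in other months had a median of −0.13. Taking off the means of small groups by itself makes such values negative, so −0.13 does not show opposed levels in different trees. The fit with the tree as a block is given beside the month results it changes. Log2 CPM used a prior count of 0.5. Where fits were repeated, the dispersion trend was taken from every 10th contig.

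The 9 contigs and the gene lists were chosen with earlier results of these data known. Contigs named with values were those called with the smallest adjusted p in provenance (up to 12) and site (up to 6), those with the largest change in each month step (up to 4), those with the smallest p in the interaction tests (up to 3), the highest by product class and up to 3 with the largest tree share; a few more were named after their values were seen. The alternatives were DESeq2 1.42.0, DESeq2 size factors, no filter, lowest values set to 0, 3 libraries left out, limma 3.58.1 with the tree as a block, no month shares, clock time for 62 libraries and each tree left out in turn. Some alternatives for tree differences, variation shares and gene lists were chosen after seeing the data. On simulated data the provenance test recovered 60% of contigs changed 2-fold and 100% of those changed 4-fold among 59189 contigs, and the September minus July test recovered 35% and 100% among 59188. The simulation drew every library independently, with no likeness between libraries of a tree. It changed only contigs above a minimum mean level, which isotig62671 (mean 0.599 CPM) and GAEK01032089.1 (0.916 CPM), among others, did not reach. These rates therefore do not carry over to the 9 contigs.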

Additional observations from a re-analysis of the deposited data

Results flagged for a closer look

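Each of the 9 contigs was looked at in each of the 16 groups of 4 to 5 libraries, 144 combinations in all, and in 13 of them 1 library stood apart from the others by Dixon's ratio, where chance marks about 1 in 20. For isotig56403, 7 such values belonged to the few trees in which it was high. Cameron Lake Schluchsee tree 9 had 8.8, 8.44, 4.08 and 0.487 CPM in May, June, July and September, where the other trees of its groups were at or below 0.0949 CPM. Salmon Arm Wiesloch tree 11 had 13.7 CPM in May (others 0.0564 to 0.0861 CPM), Salmon Arm Schluchsee tree 14 had 2.56 CPM in July (others 0.0393 to 0.0577 CPM), and Cameron Lake Wiesloch tree 9 had 0.151 CPM in September (others 0.0586 to 0.0629 CPM), which is 3 counts.

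For GAEK01033686.1, Salmon Arm Wiesloch tree 15 had 0.266 CPM in July, below the 23.0 to 115 CPM of the other trees there. Cameron Lake Wiesloch tree 13 had 0.656 CPM in May, which is 15 counts (others 0.0373 to 0.0849 CPM), and tree 12 there had 0.0463 CPM in July, which is 2 counts (others 0.367 to 0.443 CPM). For GAEK01035795.1, Salmon Arm Schluchsee tree 9 had 0.61 CPM in September (others 0.0846 to 0.114 CPM) and Cameron Lake Schluchsee tree 16 had 1.13 CPM in July (others 1.58 to 1.73 CPM). For GAEK01035631.1, Salmon Arm Schluchsee tree 12 had 1.55 CPM in May (others 0.341 to 0.488 CPM). For isotig116861 the seasonal course differed between Schluchsee and Wiesloch, with an adjusted p of 9.8e-05 for month by site in edgeR.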

How the results depend on the processing

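Differences that passed over all months, within a month or between months kept their direction under each alternative and each left-out tree run. Of 666 differences of the 9 contigs recomputed under an alternative, passed or not, 21 changed sign, 0 of which had passed. With the tree as a block these included GAEK01035631.1 (−0.34 in place of 0.14), isotig62671 (−0.46 in place of 0.21) and isotig56403 (−0.63 in place of 0.22) in July minus June. Schluchsee minus Wiesloch over all months held 2 of the 9 contigs, and 1 without the 3 libraries of a higher lowest value, without month shares or with the tree as a block in limma. Cameron Lake minus Salmon Arm in May held 0, and 1 with no filter on low counts. With DESeq2, Cameron Lake minus Salmon Arm in June held 1 in place of 0, Schluchsee minus Wiesloch 3 in May, 1 in June and 1 in September in place of 0 each, and month by site 2 in place of 1. June minus May held 1, and 0 with the lowest values set to 0 or with clock time as a covariate. Month by site also held 2 without the 3 libraries. With the tree as a replicate block June minus May held 2, July minus June 1 in place of 0, September minus July 5 in place of 3 and month by site 2, and month by provenance stayed at 0. The cause of these shifts was not tested. Over all contigs, Cameron Lake minus Salmon Arm called 6348 in edgeR and 10141 in DESeq2, and provenance by site 0 and 224.

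Leaving out each tree in turn gave 0 to 2 contigs for Schluchsee minus Wiesloch over all months, 1 to 2 in July and 0 to 1 in September. It gave 0 to 1 for Cameron Lake minus Salmon Arm in May and in September, 0 to 1 for June minus May and 1 to 2 for month by site. In May, GAEK01033686.1 was tested and passed in 14 of the 20 fits that left out a tree. Leaving out Salmon Arm Schluchsee tree 15 added GAEK01033686.1 in July, leaving out Cameron Lake Schluchsee tree 9 added GAEK01032089.1 in September, and leaving out any 1 of Cameron Lake Schluchsee tree 11, Cameron Lake Wiesloch tree 12, Salmon Arm Schluchsee tree 9 and Salmon Arm Wiesloch tree 15 added GAEK01035795.1 in month by site. The median tree share of the 9 ran from 52.9 to 63.3%, and the count of pathway genes passing between provenances from 8 to 13. Depth limits 8 of the 9 contigs, whose median was at or under 19 counts.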

Other observations

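The June library of Salmon Arm tree 15 at Wiesloch was high for several myrcene contigs at once, an observation made after the values were seen. GAEK01035631.1 had 10, 552 and 19 counts in May, June and July in that tree, and GAEK01011896.1 had 11, 187 and 7. GAEK01011895.1 had 5, 80 and 3 counts over the same months, and GAEK01033686.1 had 3, 36 and 7. No test was made of this pattern.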
